A study of Mus musculus and Homo sapiens with 22 samples.

Results

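The comparison set RNA of sorted tau aggregates against total RNA of the cells that made them. HEK293 is a line derived from human embryonic kidney. The biosensor version used here carries 2 transgenes, the P301S tau repeat domain joined to YFP and to CFP, so that aggregated tau is fluorescent. All 4 libraries came from cells that carried both transgenes, had been transfected with 200 ug of clarified brain homogenate from P301S tau mice and were taken after 24 h. In 2 libraries RNA of the cells was taken as a whole, and in 2 it came from particles enriched by centrifugation and then sorted by fluorescence. They are 4 of the 22 libraries of the series, 1 plate of cells standing for 1 replicate. The p-values therefore rest on 2 plates per group. The spread behind them was pooled over both groups and drawn toward that of other genes of like level. Replicates of the aggregates differed more than those of total RNA, so a p-value is not the spread of either group alone. The tables listed 23674 genes in each library after 63 repeated names were dropped, and all of them entered the comparison or its filter.

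Tau binds microtubules through its repeat domain and forms fibres in Alzheimer disease and other tauopathies. A piece of fibre taken up from outside can act as a seed that converts the soluble tau of a cell. RNA and other polyanions promote tau assembly in the test tube, and RNA is found in tau inclusions. Much of a cell's RNA has a fixed place: small nucleolar RNAs (snoRNAs) stay in nucleoli, splicing RNAs and some long noncoding RNAs (lncRNAs) in other nuclear bodies, and most messenger RNAs (mRNAs) are translated in the cytosol or at the endoplasmic reticulum.

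Depth was 13.7 M and 13.8 M reads on listed genes for total RNA, against 1.19 M and 0.879 M for the sorted particles, so the aggregates carry most of the counting error. Levels are FPKM, fragments per kilobase of transcript scaled to the depth of the library. A log2 change is the difference of group means of log2(FPKM + 1), aggregates minus total RNA, ± SE. A gene was called when limma gave a p under 0.05 after Benjamini-Hochberg adjustment. A read filter (at least 10 expected where depth was lowest) left 10195 genes. Of these, 2676 were called higher in aggregates (26.2%) and 2651 lower (26.0%), beside a median change of 0.02. Changes of at least 1 log2 unit were called for 667 genes upward and 951 downward. Each list below is to be read against these 26.2% and 26.0%, except where few members passed the read filter. Without total replicate 1 or 2, when only the aggregates set the spread, 822 and 680 genes were called higher and 1079 and 1005 lower. Without aggregate replicate 1 or 2, the counts were 4095 and 4131 higher and 4037 and 3885 lower. Across genes, the changes of aggregate replicates 1 and 2, measured from the same total libraries, had a Spearman rho of 0.87 (10195 genes). The HEK293 marker vimentin (VIM) stood at 197 and 190 FPKM in total RNA and at 106 and 91.4 in aggregates. Of the 8 HEK293 markers tested 3 fell and 0 rose. The 9 in the tables summed to 295 and 286 FPKM in total RNA and to 192 and 164 in aggregates, with VIM the larger part of each sum. SOX11, set down as a HEK293 marker too, had 1 and 2 reads in total RNA and 0 in both aggregates. Of 12 human glial markers of the brain, 3 had no read in any library and the sum of all 12 was 1.38 to 3.11 FPKM. The 10 neuronal markers summed to 25.1 to 32.8 FPKM in the 4 libraries, with NRGN the highest in each at 12.5 to 18.5. Reads of mouse brain RNA that align to human genes were not separated.

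Where the reads went differed between the groups. Protein-coding genes took 91.2% and 90.9% of reads in total RNA and 83.8% and 81.4% in the aggregates. snoRNA genes, counted over all 366 in the tables, took 0.0843% and 0.102% in total RNA against 1.86% and 3.86% in aggregates. Both aggregate values lie above both total values, and the second aggregate held more snoRNA than the first. NEAT1 alone, the lncRNA on which paraspeckles are built, took 0.504% and 0.526% of total RNA reads and 5.20% and 4.12% of aggregate reads, with the first aggregate the higher one. SNORA73A and SNORA73B together rose from 0.0132% and 0.0202% to 0.982% and 2.04%. Shares of antisense RNA genes were 0.40% and 0.411% in total RNA against 0.716% and 0.731%. Pseudogenes stood at 0.386% and 0.389% against 0.631% and 0.690%. With 2 libraries against 2, an exact two-sided permutation test cannot give a p below 0.333, so the shares were not tested. Fewer particles of a kind and less RNA per particle cannot be told apart in these pools.

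**Figure D1:**
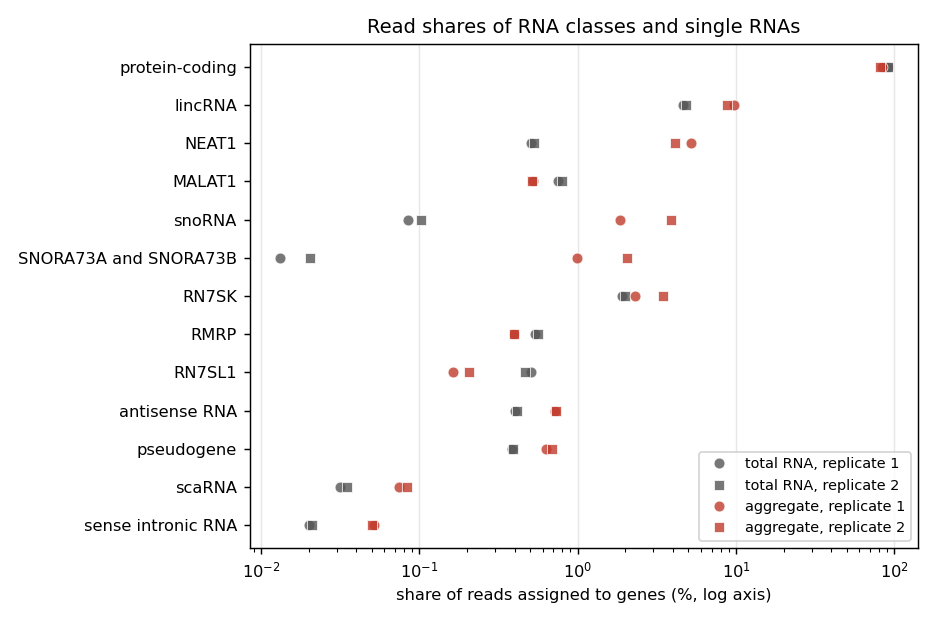
Share of reads assigned to genes (%, log axis) taken by RNA classes and by single RNAs, with 1 point per library. Grey points are total RNA and red points aggregates, circles replicate 1 and squares replicate 2. The snoRNA share lies at 0.0843% and 0.102% in total RNA and at 1.86% and 3.86% in aggregates, while MALAT1, RMRP and RN7SL1 lie lower in both aggregates than in either total library.

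The small RNAs of the nucleolus gave the largest changes. SNORA52, of the H/ACA box family that guides pseudouridylation, stood at 8.18 and 10.3 FPKM in total RNA and at 4773 and 10090.0 FPKM in aggregates. The aggregate libraries rested on 760 and 1188 reads. The groups do not overlap, which also held for 8171 of the 10195 genes tested (80.1%). Its change was 9.41 ± 0.37 (adjusted p = 0.0018). SNORA73A, a snoRNA tied to ribosomal RNA processing and chosen here after its values were seen, stood at 444 and 662 FPKM in total RNA and at 31837 and 62678 in aggregates (change 6.36 ± 0.42, adjusted p = 0.0019). SNORD3A, the U3 RNA needed to cut the precursor of ribosomal RNA, stood at 0.732 and 0.933 FPKM against 142 and 197 (change 6.52 ± 0.19). Its total libraries rested on 7 and 9 reads, at levels below the 1 FPKM added before the log. The size of its change therefore depends on that added value. Of the 101 H/ACA box genes 30 passed the read filter and 29 of these rose. Of the 260 C/D box genes, which guide ribose methylation, 25 passed and all 25 rose. A gene could pass through the aggregates alone, so these counts describe the members and lend no support. The second aggregate was the higher one for 54 of 57 snoRNA-type genes tested, by a median of 1.06 log2 units. Over all genes tested the same difference had a median of -0.02. Most snoRNAs lie inside introns of host genes, though SNORD3A has its own promoter, and reads of intronic snoRNAs and those of unspliced host RNA were not separated.

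RNAs of other small RNA-protein particles did not move as one. RNA of the signal recognition particle, RN7SL1, was 16874 and 15494 FPKM in total RNA and 5477 and 6893 in aggregates (change -1.40 ± 0.30, adjusted p = 0.016). RPPH1, the RNA subunit of RNase P, was 7484 and 8378 FPKM against 2575 and 3120 (change -1.48 ± 0.22, adjusted p = 0.0065). Neither RN7SL1 (adjusted p = 0.34 and 0.32) nor RPPH1 (adjusted p = 0.12 and 0.15) kept its call without total replicate 1 or 2. RN7SK, which holds the elongation factor P-TEFb inactive, was the most abundant RNA by FPKM in total RNA as well as in the aggregates. It stood at 69696 and 104979 FPKM in the aggregates. In total RNA it was at 58097 and 60596, and its change of 0.53 ± 0.74 was not called (adjusted p = 0.57). In voom, RN7SK was called higher, at a change of 0.52 (adjusted p = 0.00015). The telomerase RNA TERC rose from 148 and 153 FPKM to 454 and 549 (change 1.72 ± 0.12, adjusted p = 0.0018). Of the minor spliceosome, which removes a rare class of introns, 3 of 4 snRNAs were tested and rose: RNU6ATAC by 4.72, RNU11 by 2.67 and RNU12 by 1.60. RNU12 was 79.4 and 212 FPKM in total RNA, and its call was lost without total replicate 1 (adjusted p = 0.057). With the trend over gene length removed, RNU12 changed by -0.178 and the major snRNA RNU4-2, at 1.84 otherwise, by -0.017, neither of them called.

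Nuclear lncRNAs split. NEAT1 stood at 221 and 231 FPKM in total RNA and at 2288 and 1812 in aggregates, on 61846 and 36200 aggregate reads (change 3.16 ± 0.15, adjusted p = 0.0018). MALAT1, a lncRNA of nuclear speckles, was 866 and 919 FPKM in total RNA and 603 and 591 in aggregates. Its groups do not overlap, in the direction opposite to NEAT1 (change -0.58 ± 0.11, adjusted p = 0.011), and the call was lost without total replicate 1 or 2 (adjusted p = 0.16 and 0.22). KCNQ1OT1, an antisense RNA that silences neighbouring imprinted genes, was 9.31 and 9.07 FPKM in total RNA and 23.9 and 22.1 in aggregates (change 1.23 ± 0.10). Of 9 nuclear-retained lncRNAs tested 6 rose and 2 fell, with a median change of 1.03, or 4 and 0 without either total library. The LINC and antisense counts that follow cover members that passed the read filter, which low genes could do through the aggregates alone, so they are descriptions and lend no support. Of 782 genes named LINC 38 were tested, with 28 higher and 0 lower with a median of 0.76. Leaving out either total library left 11 of them called higher. Of 885 genes with an antisense name 94 were tested, and 51 rose and 5 fell (median 0.71), and without total replicate 1 or 2 these were 23 and 22 higher. Led by TBX2-AS1, they also held OTUD6B-AS1, which fell from 8.22 and 9.05 FPKM to 3.15 and 1.86 (change -1.48 ± 0.21, adjusted p = 0.0058). OTUD6B-AS1 rested on 16 and 7 aggregate reads. TBX2-AS1 was 5.85 and 4.96 FPKM in total RNA and 35.2 and 30.4 in aggregates (change 2.40 ± 0.14).

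Transcripts annotated inside an intron of another gene on the same strand formed a small class of 57 genes, of which 9 passed the read filter and were called higher, with a median of 1.32. These too could pass through the aggregates alone, so the count describes those members and lends no support. The class was singled out after its values were seen. Its largest change belonged to AGAP1-IT1, which lies in AGAP1 and stood at 5.72 and 6.33 FPKM in total RNA and at 32.9 and 44.6 in aggregates (change 2.49 ± 0.17, adjusted p = 0.0018). Of 740 pseudogenes 106 passed the same filter, and of these 76 rose and 6 fell, with a median of 0.85, a count open to the same limit. Reads that fit both a pseudogene and its parent are a source of error for single members. The host genes that carry snoRNAs in their introns, 19 of them tested, counted 7 higher and 7 lower. SNHG5 fell from 64.8 and 67.7 FPKM to 20.4 and 9.93 (change -2.14 ± 0.32). It rested on 25 and 9 aggregate reads, with changes of -1.65 and -2.62 in aggregate replicates 1 and 2. SNHG17 rose from 17.5 and 18.5 FPKM to 39.4 and 57.5 (change 1.36 ± 0.19). The 2 hosts lay on opposite sides of total RNA.

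Protein-coding genes balanced: of 9797 tested, 2403 were called higher (24.5%) and 2625 lower (26.8%), and the median change was -0.003. The rises and falls were of different sizes and kinds. Outside the lncRNA, small RNA and mitochondrial lists, the largest rises were about 2 log2 units. WDR4, part of the enzyme that makes 7-methylguanosine in transfer RNA, was 30.6 and 31.7 FPKM in total RNA and 118 and 140 in aggregates (change 2.01 ± 0.11, adjusted p = 0.0018). PPCDC, an enzyme of coenzyme A synthesis, was 11.05 and 12.2 FPKM against 51.7 and 51.4 (change 2.06 ± 0.10, adjusted p = 0.0018). MAD1L1, which recruits MAD2 in the spindle checkpoint, was 15.02 and 11.9 FPKM against 60.2 and 50.6 (change 1.96 ± 0.15). In all 3 of these genes the lower aggregate library lay more than 3 times above the higher total library. TBC1D22A (1.97 ± 0.11), LRP5L (1.94 ± 0.11), the dopamine receptor gene DRD4 (2.04 ± 0.14), CXorf67 (1.97 ± 0.17), XKR6 (1.92 ± 0.24), MAFIP (2.24 ± 0.12) and FAM95C (2.10 ± 0.15) were of like size. DRD4, CXorf67 and XKR6 rested on 18 to 41 reads in each aggregate library. CSNK1E, a casein kinase gene, rose by 2.36 ± 0.29 on 24 and 33 aggregate reads, and its reads may be shared with the readthrough gene that overlaps it. Of these genes, CSNK1E, TBC1D22A and LRP5L lie on chromosome 22.

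Outside the same lists, the largest falls were deeper. HMGN5, a nucleosome-binding protein gene on chromosome X, was 63.1 and 64.0 FPKM in total RNA and 5.94 and 5.35 in aggregates (change -3.28 ± 0.10, adjusted p = 0.0015). PSMA4, a subunit of the proteasome core, was 47.0 and 45.5 FPKM against 5.57 and 5.20 (change -2.89 ± 0.10, adjusted p = 0.0015). TXN, which encodes thioredoxin, was 239 and 225 FPKM against 38.8 and 27.8 (change -2.78 ± 0.17, adjusted p = 0.0018). The replicates of each group lay close together for HMGN5 and PSMA4, and the groups of all 3 genes were far apart. The aggregate libraries rested on 15 and 10 reads for HMGN5, 29 and 20 for PSMA4 and 34 and 18 for TXN. At such counts, close replicates do not show that the error is small, and the SE may be too low. The prefoldin subunit PFDN4 (-2.83 ± 0.18) and ZCRB1 of the minor spliceosome (-2.74 ± 0.28) rested on 3 to 9 reads in each aggregate library. RSL24D1, a ribosome assembly factor, was 13.8 and 4.22 FPKM in the aggregates, so its change of -2.51 ± 0.50 carries a wide error. SSB, the La protein that binds new RNA polymerase III transcripts (-2.38 ± 0.08), the lysosomal lipase LIPA (-2.38 ± 0.37) and EIF3E of the translation initiation machinery (-2.36 ± 0.17) followed. LIPA rested on 21 and 6 aggregate reads. Outside the small RNA, lncRNA and mitochondrial lists, the remaining 3 of the 12 largest falls were the ribosomal protein genes RPS13, RPL34 and RPL39.

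**Figure D2:**
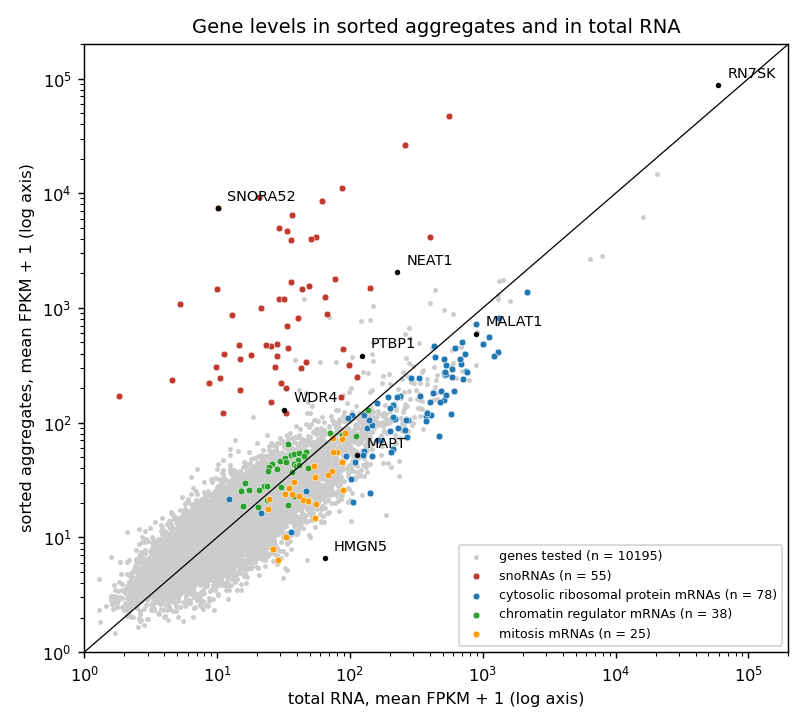
Mean FPKM + 1 of each of the 10195 genes tested in total RNA (x axis) and in sorted aggregates (y axis), both on log axes, with equal levels on the diagonal and 4 gene groups in colour. The snoRNAs lie above the diagonal, the cytosolic ribosomal protein mRNAs mostly below it at high levels, and NEAT1 and MALAT1 on opposite sides.

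Messenger RNAs of the cytosolic ribosome made up 5.46% and 5.53% of total RNA reads and 2.70% and 2.79% of aggregate reads. Of 78 tested, 67 fell and 0 rose, with a median of -1.06. Falls numbered 52 and 49 without total replicate 1 or 2. RPS13, of the small subunit, was 457 and 479 FPKM in total RNA and 69.3 and 80.6 in aggregates (change -2.63 ± 0.11, adjusted p = 0.0018). Members ranged from -2.63 to 0.72. The translation factors followed the ribosome: 34 of 44 fell (21 without total replicate 1, 21 without total replicate 2) and the median was -0.77. TPT1 was 189 and 197 FPKM in total RNA and 43.5 and 43.7 in aggregates (change -2.12 ± 0.08). The exceptions were EEF1D, of the elongation factor complex (0.93 ± 0.12, 53.1 to 55.2 FPKM in total RNA and 94.8 to 114 in aggregates), and EIF4G3, a scaffold of initiation (0.44 ± 0.08). Both were named after their values were seen, and EIF4G3 lost its call without total replicate 1 or 2 (adjusted p = 0.14 and 0.15). Of 20 aminoacyl-tRNA synthetase mRNAs, whose enzymes charge transfer RNAs, 13 fell and 0 rose (median -0.51), and 7 and 6 fell without total replicate 1 or 2.

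Messenger RNAs of protein folding and turnover lay in the same direction. All 8 subunits of the TRiC chaperonin, a folding chamber for actin and tubulin, fell, with changes from -1.48 to -0.74. They also fell without any 1 of the 4 libraries. CCT8 was 174 and 175 FPKM in total RNA and 61.6 and 62.6 in aggregates (change -1.48 ± 0.08). Of 33 proteasome subunits tested 26 fell and 0 rose (median -0.69), and without total replicate 1 or 2 these were 13 and 11. Of 19 heat shock and chaperone mRNAs 12 fell (median -0.90), and BAG3, a co-chaperone of HSP70, rose (change 0.58, not called without total replicate 1 or 2). HSP90AA1 was 365 and 342 FPKM against 96.6 and 76.8 (change -2.02 ± 0.14). The inducible HSPA1B, named after its values were seen, was 40.2 and 27.8 FPKM in total RNA and 30.3 and 20.3 in aggregates, so its groups overlap (change -0.42 ± 0.26, adjusted p = 0.23). It was called lower with the replicate block (adjusted p = 0.025) and without aggregate replicate 1 (-0.70, adjusted p = 0.0018). Of 17 glycolysis mRNAs 10 fell, and the phosphofructokinase genes PFKL and PFKP rose, though neither was called without total replicate 1 or 2 (median -0.54). Falls among glycolysis mRNAs numbered 5 and 4 without total replicate 1 or 2. LDHA was 346 and 344 FPKM against 143 and 119 (change -1.40 ± 0.12).

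Organelle proteins made outside mitochondria gave like values. Of 60 nuclear-encoded respiratory chain mRNAs 36 fell, and NDUFA10 and NDUFS7 rose (median -0.86), of which NDUFS7 was not called without total replicate 1 or 2. COX7C, a cytochrome oxidase subunit, was 95.8 and 97.1 FPKM in total RNA and 18.1 and 20.8 in aggregates (change -2.26 ± 0.10). Of 75 mitochondrial ribosomal protein mRNAs 42 fell and 4 rose (MRPL23, MRPL14, MRPS25 and MRPL38), with a median of -0.56. Falls numbered 12 and 11 and rises 1 and 1 without total replicate 1 or 2. Among 36 mRNAs of the endoplasmic reticulum, 31 fell and 0 rose (median -0.90), or 21 and 20 without total replicate 1 or 2. HSP90B1, the reticulum's HSP90, was 206 and 204 FPKM against 56.9 and 52.9 (change -1.88 ± 0.08). Lysosomal and surface glycoproteins are also made at the endoplasmic reticulum, and their mRNAs divided into 13 higher and 14 lower of 39 (median -0.08). LRP5, a Wnt co-receptor, rose from 20.02 and 18.5 FPKM to 41.3 and 45.3 (change 1.13 ± 0.10). LAMP2, a lysosomal membrane protein, fell from 39.95 and 38.99 FPKM to 13.99 and 12.4 (change -1.51 ± 0.10). The receptors NOTCH1, PLXNA1, IGF2R, IGF1R, LRP1, INSR and LRP6 were among the 13 that rose. The split was 4 higher and 6 lower without total replicate 1, and 2 and 5 without total replicate 2. Enzymes of cholesterol synthesis also divided, with 9 lower and 4 higher of 20, or 5 and 1 without total replicate 1 and 6 and 1 without total replicate 2. LSS, which closes the sterol rings, rose from 28.2 and 26.4 FPKM to 64.8 and 66.4 (change 1.23 ± 0.09). SQLE, which makes its substrate, fell from 69.2 and 65.9 FPKM to 29.0 and 30.0 (change -1.17 ± 0.08). Consecutive enzymes of 1 pathway thus changed in opposite directions.

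**Figure D3:**
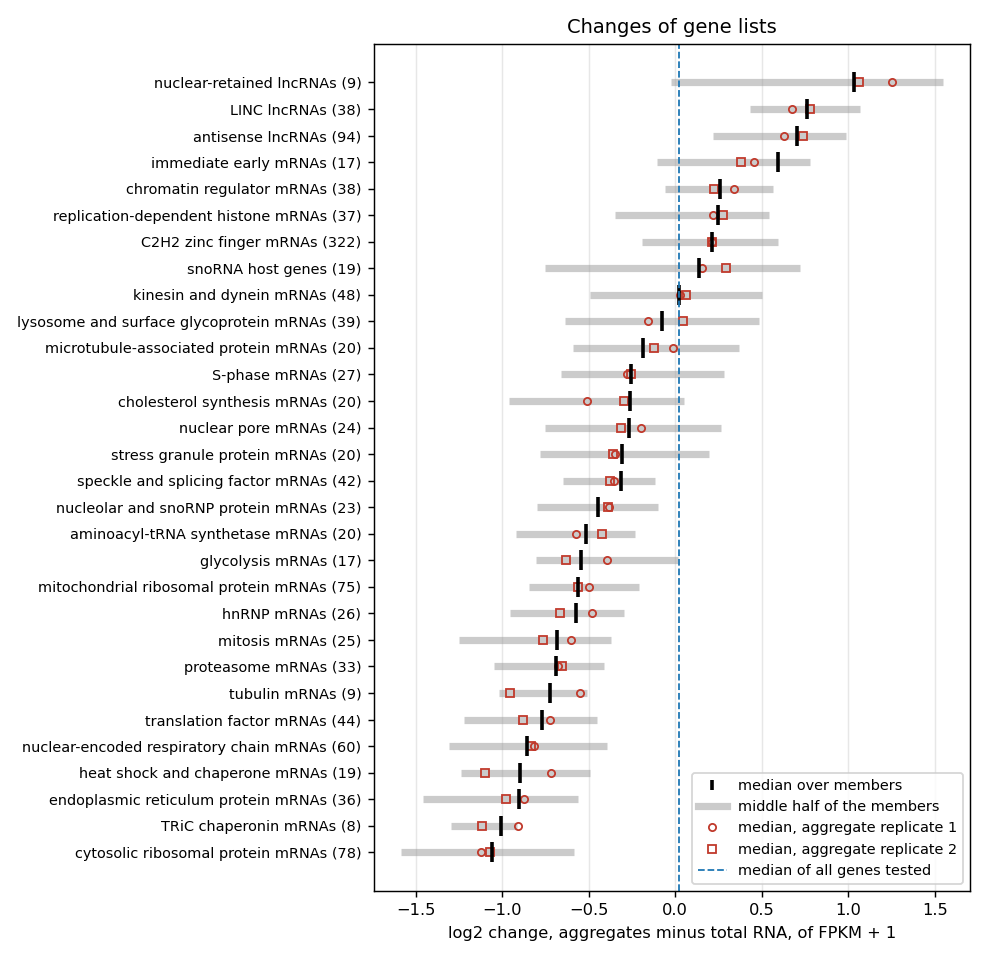
Log2 changes of gene lists, with the number of members tested in brackets. Black ticks are medians over members, grey bars the interquartile range of members, red circles and squares the medians of aggregate replicates 1 and 2 against the mean of the total libraries, and the dashed line the median of all genes tested (0.02). Ribosomal, chaperonin and endoplasmic reticulum mRNAs lie lowest, and nuclear-retained, LINC and antisense lncRNAs highest, followed by immediate early and chromatin regulator mRNAs.

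Messenger RNAs of nuclear proteins fell or rose by family. Of 38 chromatin regulators 18 rose and 3 fell, with a median of 0.26. Rises numbered 5 and 3 without total replicate 1 or 2, and 12 with the length trend removed. KMT2D, a histone H3 lysine 4 methyltransferase, was 34.1 and 32.0 FPKM in total RNA and 67.5 and 60.3 in aggregates (change 0.93 ± 0.10, adjusted p = 0.0030). ARID1B, of the SWI/SNF remodeller, rose by 0.87 ± 0.09, and the 3 that fell were CHD1, ATRX and SMARCC1, none of them called without total replicate 2. Of 322 zinc finger mRNAs 96 rose and 39 fell (median 0.21), beside 26.2% and 26.0% over all genes. Without total replicate 1 or 2 the rises were 28 and 25. ZNF589 was 32.7 and 33.0 FPKM against 77.3 and 77.2 (change 1.21 ± 0.08). Histone mRNAs, which end in a stem-loop and mostly lack a poly(A) tail, counted 14 higher and 8 lower of 37, and 6 and 7 higher, with 1 lower each time, without total replicate 1 or 2. By type, 9 of 12 tested H3 and H4 genes rose, as did HIST1H4A (123.2 and 126 FPKM against 251 and 299). Of 11 H2B genes 5 fell, among them HIST1H2BJ (change -0.98). Of 11 H2A genes 5 rose and 2 fell. Near-identical copies of histone genes share reads, so single members are uncertain.

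Messenger RNAs of splicing and RNA-binding proteins leaned downward. Of 42 speckle and splicing factor mRNAs 19 fell and 3 rose, with a median of -0.31, and 8 and 7 fell without total replicate 1 or 2. SF3B1, of the U2 particle, was 57.6 and 56.8 FPKM in total RNA and 22.8 and 21.2 in aggregates (change -1.34 ± 0.09). The 3 that rose were LUC7L2, LUC7L and PABPN1, the last of these not called without total replicate 1 or 2, and LUC7L2 went from 16.6 and 15.99 FPKM to 31.1 and 44.5 (change 1.14 ± 0.18). SRRM2, a scaffold of nuclear speckles, was 257 and 239 FPKM in total RNA and 306 and 242 in aggregates, so its groups overlap (change 0.13 ± 0.14, adjusted p = 0.46). Its change was -0.037 without aggregate replicate 1 and 0.302, then called, without aggregate replicate 2. SON, the other scaffold, was 97.3 and 94.2 FPKM against 113 and 102 (change 0.17 ± 0.09, adjusted p = 0.19), and it was called higher under quantile normalization, in voom and without aggregate replicate 2. Of 26 hnRNP and related mRNAs 19 fell (median -0.58), and 10 and 9 fell without total replicate 1 or 2. HNRNPA3 was 126 and 129 FPKM against 48.2 and 53.8 (change -1.31 ± 0.09). PTBP1, a repressor of neuronal exons and the 1 member of this list that rose, was 124 and 120 FPKM in total RNA and 340 and 428 in aggregates (change 1.63 ± 0.14, adjusted p = 0.0023). Of 23 nucleolar and snoRNP protein mRNAs 11 fell and 3 rose (median -0.44), and 6 and 5 fell without total replicate 1 or 2. NPM1, the main nucleolar chaperone, was 879 and 895 FPKM against 347 and 282 (change -1.50 ± 0.14). GAR1, a protein of H/ACA particles, fell by 1.62 on the log2 scale. Of 24 nuclear pore mRNAs 11 fell and 5 rose (median -0.27), or 5 and 0 with either total library left out. TPR, of the nuclear basket, was 104 and 105 FPKM in total RNA and 47.0 and 48.1 in aggregates (change -1.12 ± 0.08).

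Among cell cycle mRNAs, those of mitosis were called in the downward direction alone. Of 25 tested 18 fell and 0 rose (median -0.68), or 11 and 13 lower without total replicate 1 or 2. TOP2A, which untangles sister chromatids, was 87.7 and 86.2 FPKM in total RNA and 22.3 and 26.98 in aggregates (change -1.78 ± 0.12). CENPE, a kinetochore kinesin, fell by 1.71 on the log2 scale. Of 27 S-phase mRNAs 12 fell and 5 rose, or 6 and 1 without total replicate 1 and 4 and 1 without total replicate 2. PCNA, the sliding clamp of replication, was 197 and 208 FPKM against 41.5 and 38.5 (change -2.31 ± 0.09), while E2F1, a transcription factor that drives S-phase genes, was 29.7 and 29.0 FPKM against 48.5 and 55.4 (change 0.80 ± 0.10). With quantile normalization the S-phase split was 9 higher and 8 lower.

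Of the genes closest to tau, MAPT was 113 and 113 FPKM in total RNA and 57.4 and 44.1 in aggregates (change -1.15 ± 0.14, adjusted p = 0.0042). The transgenes carry part of the MAPT coding sequence, and their reads and those of the cell's own gene were not separated. Of 20 microtubule-associated and tau kinase mRNAs 6 fell and 5 rose, or 4 and 1 with either total library left out. STMN1, which binds free tubulin, was 77.7 and 76.0 FPKM against 24.6 and 21.2 (change -1.71 ± 0.10). MAP1S rose from 9.54 and 8.87 FPKM to 18.8 and 21.4 (change 1.05 ± 0.12), and the tau kinases MARK4, MARK2 and MARK3 also rose, by 0.69, 0.52 and 0.43, calls that were lost without total replicate 1 or 2. Tubulin mRNAs counted 7 lower and 0 higher of 9 (median -0.72), and 4 and 4 fell without total replicate 1 or 2. TUBB was 447 and 435 FPKM in total RNA and 256 and 218 in aggregates (change -0.90 ± 0.12). Of 48 kinesin and dynein mRNAs 16 rose and 15 fell, with a median of 0.02, beside 0.02 over all genes. Leaving out total replicate 1 gave 2 rises and 6 falls, and total replicate 2 gave 1 and 5. KIF5B, the motor of many axonal cargoes, was 43.6 and 43.1 FPKM against 20.5 and 18.2 (change -1.12 ± 0.10).

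Most calls in the 2 stress lists lay in opposite directions. Immediate early mRNAs, which cells make within minutes of a stimulus and degrade quickly, counted 8 higher and 1 lower of 17, with a median of 0.60. Their summed share of reads did not rise, at 0.180% and 0.167% in total RNA and 0.175% and 0.159% in aggregates. Rises numbered 1 and 0 without total replicate 1 or 2. The 1 that fell, ATF4, changed by -0.31 and lost its call under 9 of the 16 alternatives. JUNB was 6.47 and 6.18 FPKM in total RNA and 15.2 and 11.8 in aggregates, on 33 and 19 aggregate reads (change 0.98 ± 0.15, adjusted p = 0.0072, but 0.051 and 0.063 without total replicate 1 or 2). mRNAs of stress granule proteins counted 10 lower and 2 higher of 20 (median -0.31), and 4 and 5 fell without total replicate 1 or 2. G3BP2 was 57.0 and 54.6 FPKM against 23.3 and 17.5 (change -1.42 ± 0.15).

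Level, intron length and chromosome of protein-coding genes moved with the change, and they were examined after other values had been seen. The first was the level in total RNA. In the octile with the lowest levels (up to 4.37 FPKM) 44.3% of genes were called higher and 3.8% lower, with a median change of 0.47. In the octile with the highest levels (from 40.7 FPKM) 6.9% were higher and 63.9% lower, with a median of -0.59. The level in total RNA is part of the change itself, so error in it moves both, and genes low in total RNA could pass the filter through the aggregates. Ordered by the mean of both groups instead, the lowest octile had 27.5% higher and 12.7% lower (median 0.21) and the highest 14.4% and 53.2% (median -0.43). The Spearman rho across 9797 genes was -0.45 with the level in total RNA and -0.21 with the mean of both groups. Cytosolic ribosomal protein mRNAs, whose median level in total RNA was 332 FPKM, belong at the upper end of this range, while chromatin regulators had a median of 32.5 FPKM and zinc finger mRNAs of 6.96. The part of level in the list results was not tested.

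The second was the length of introns, summed per gene over those listed on hg38 in the authors' intron table. It was found for 8990 of the 9797 genes (91.8%). Octiles 1 to 7 were alike: 19.1% to 24.4% of their genes were called higher and 24.5% to 31.9% lower, and medians lay between -0.12 and 0.02. Octile 8, from 142131 bases, had 40.5% higher and 10.6% lower among 1124 genes, with a median of 0.31 that was 0.30 in aggregate replicate 1 and 0.32 in replicate 2. These genes had lower levels (a median of 8.69 FPKM) and longer transcripts (6302 bases) than the other octiles. Within broad groups of low, middle and high level the difference was still seen, though the groups do not match level or transcript length. Median levels of octile 8 and of the other octiles were 4.43 and 5.33 FPKM in the low group. They were 13.07 and 13.02 in the middle group and 27.2 and 33.8 in the high group. Octile 8 had the longer transcripts in each group. At low levels (up to 8.80 FPKM) the median was 0.43 in octile 8 and 0.26 in the other octiles. At middle levels it was 0.19 and -0.02, and at high levels (from 19.7 FPKM) -0.05 and -0.40. With the trend over transcript length removed, the median of octile 8 was 0.21. TBC1D22A, with 405829 bases of listed introns between positions 46762848 and 47173497 of chromosome 22, and MAD1L1, with 398912 bases between 1816228 and 2232871 of chromosome 7, were in octile 8. WDR4, with 33748 bases between 42843281 and 42878991 of chromosome 21, was not. EIF3E, with 226077 bases, was in octile 8 and fell. Without total replicate 1 or 2, 110 and 105 genes of octile 8 were called higher, against 455. Beyond these values, the part of level and transcript length in this difference was not tested.

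**Figure D4:**
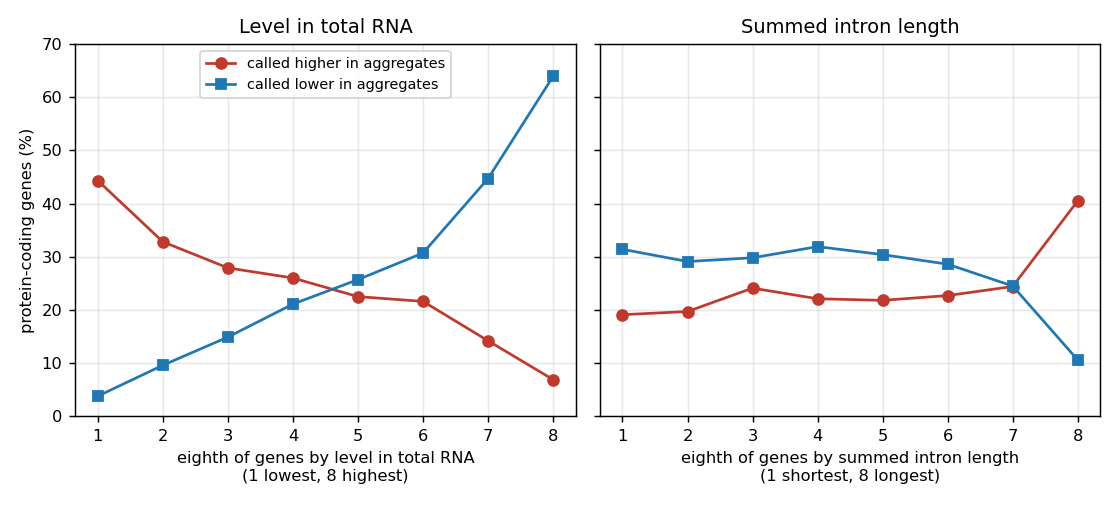
Share of protein-coding genes called higher (red) and lower (blue) in aggregates, by octile of level in total RNA (left, 9797 genes) and of summed intron length (right, 8990 genes). The share called higher goes from 44.3% to 6.9% with level, and with intron length it stays between 19.1% and 24.4% until the last octile, where it reaches 40.5%.

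The third was the chromosome. Medians over the protein-coding genes of a chromosome ran from -0.25 to 0.39 across 23 chromosomes, and both aggregate replicates had medians above 0 on 10 of them and below 0 on 11. Chromosome 22 lay highest: of its 220 genes 45.5% were called higher and 10.5% lower, with medians of 0.34 in aggregate replicate 1 and 0.41 in replicate 2. Chromosome 16 followed with 36.7% higher and 14.1% lower of 384 genes (median 0.28), and then chromosome 19 with 30.0% and 14.4% of 534 (median 0.18). At the other end stood chromosome 5, where 14.6% of 405 genes were higher and 37.8% lower (median -0.25). Chromosome 4 (median -0.21), chromosome X (-0.20) and chromosome 13 (-0.19) were next to it. The median level in total RNA was 17.2 FPKM on chromosome 22 and 13.2 on chromosome 5. The median summed intron length was 23414 bases on chromosome 22, 12640 on chromosome 19 and 39038 on chromosome 5. Among genes of low, middle and high level, chromosome 22 had medians of 0.60, 0.47 and 0.14, and chromosome 5 of 0.12, -0.27 and -0.51. Under every alternative normalization, filter and pseudocount, and without any 1 library, the median of chromosome 22 lay between 0.29 and 0.43 and that of chromosome 5 between -0.33 and -0.20. The number of genes called higher on chromosome 22 fell from 100 to 41 and 36 without total replicate 1 or 2.

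**Figure D5:**
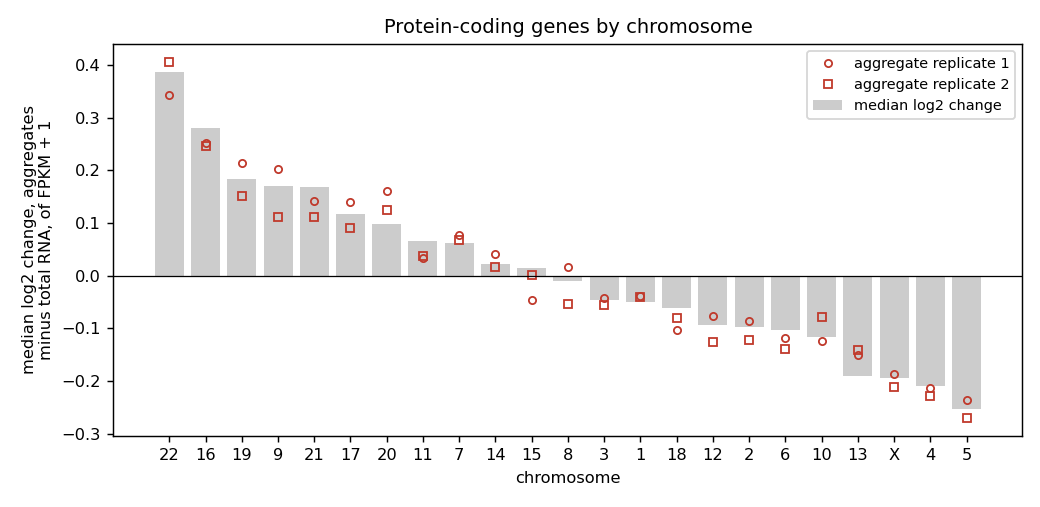
Median log2 change of protein-coding genes by chromosome, ordered by the median (grey bars), with the medians of aggregate replicates 1 and 2 as red circles and squares. Chromosome 22 lies highest at 0.39 and chromosome 5 lowest at -0.25, with both replicates on the same side of 0 in each.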

How the data were processed

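The authors deposited FPKM values per gene for each of the 4 libraries, per the file headers. Per the labels' protocols, libraries were depleted of ribosomal RNA and primed with random hexamers. Alignment was to hg38 by STAR 2.6.0c, per the submitters' processing notes. The read counter, strand setting and annotation release are not given in the sources used. FPKM multiplied by length fell on whole multiples of 1 read for at least 99.988% of genes (tolerance 0.02 reads), which gave depths. A floor of 3 reads on 1 kb equals 0.217 to 3.41 FPKM and covers counting error only. Replicates with at least 20 reads differed by a mean squared z of 2.32 (total) and 3.21 (aggregate), where sampling noise alone gives about 1, so none was counted as a duplicate. Intron positions, other values in the authors' deposited intron table, gave chromosomes and summed intron lengths.

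Genes were fitted with limma 3.58.1 (R 4.3.3, mean-variance trend, 2 residual degrees of freedom) on log2(FPKM + 1). A gene's expected reads were the average of its 4 read shares, times the lowest depth. On simulated data with 200 changed genes, 88%, 70%, 82% and 94% of changes of -2, -1, 1 and 2 log2 units were called. Of all calls in the simulated data, 1.76% fell on genes given no change. In the 4 libraries 5327 of 10195 genes were called, and whether these rates hold for them was not tested. Alternatives were pseudocounts, filters, scalings, thinning, voom, a replicate block and leaving out each library.

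The members, lists, filter and tests were chosen with earlier results of these data known. The names matched as microRNA genes were narrowed after the tables were read, and mitochondrially encoded genes are not analysed here. Named genes were called, had groups that do not overlap, and had at least 5 FPKM and 50 reads in the higher group: the 10 largest changes per direction, 12 outside the small RNA, lncRNA and mitochondrial lists, 6 in lncRNA lists, and 4 per list with the smallest p. MAPT, NEAT1, MALAT1, SRRM2 and SON were named whatever their values. The text names a part of these. SNORA73A, SNORA73B, RN7SK, RN7SL1, SNHG17, EEF1D, EIF4G3, HSPA1B, PTBP1, E2F1, LUC7L2, the MARK kinases and members named to complete a count were named after their values were seen. Some members of the lists are not reported here.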

Additional observations from a re-analysis of the deposited data

How the results depend on the processing

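The counts of genes called were 2676 higher and 2651 lower. At least 50 expected reads gave 1325 and 1605, of fewer genes tested (4524). The other filters, pseudocounts, scalings, thinning, voom and the replicate block moved neither count by more than 1.5 times. Leaving out 1 library gave 680 to 4131 higher and 1005 to 4037 lower. Every gene called without total replicate 1 or 2 was called in the same direction with all 4 libraries. Every gene called with all 4 libraries was called in the same direction without aggregate replicate 1 or 2. In that case only the total libraries, whose replicates differed less, set the spread. Keeping these calls therefore does not measure how well the aggregate replicates agree. With the replicate block, 2660 were higher and 2733 lower; same-numbered libraries had a correlation of 0.08 over their deviations from the group means, and the number is all they are known to share. Median changes turned negative for scaRNAs (-0.601 with at least 1 FPKM in 2 libraries, -0.601 without a filter, -0.924 with the length trend removed) and for microRNA genes (-0.36 without a filter, -0.71 with the length trend removed). Among named genes, RNU4-2 (-0.017), RNU12 (-0.178) and MIR5047 (-1.105) changed sign with the length trend removed. MIR5047, otherwise called higher, was then called lower (limma, adjusted p = 0.026). Removing the length trend was the only alternative that gave calls opposite to those reported above, for 5 genes. SRRM2 changed sign without aggregate replicate 1 (-0.037, and 0.302 without aggregate replicate 2). RN7SK, not called, was at 0.0 under quantile normalization, which gives the top rank of each library 1 value, and at -0.167 with the length trend removed. The cause of the other sign changes was not tested. Depth limits the low end: 3 reads on 1 kb equal 2.52 and 3.41 FPKM in the aggregates.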
